A study of Homo sapiens with 6 samples.

Results

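The aminoacyl-tRNA synthetase genes were examined in HT29, a human colorectal adenocarcinoma cell line of wild-type genotype, after withdrawal of histidine or of tryptophan. The set held 38 of the 60676 genes in the count tables. They were 20 cytosolic synthetase genes, the scaffold genes AIMP1 and AIMP2, and 16 mitochondrial synthetase genes, which here are the members whose symbol ends in 2 apart from AIMP2. They were chosen by symbol, and their Ensembl identifiers were looked up in gencode release 44 for GRCh38, which found all 38. HT29 cells were kept for 48 h in control medium (untreated), in histidine-depleted medium or in tryptophan-depleted medium, and RNA of 2 samples per condition was sequenced. The histidine-free medium was RPMI-based and the tryptophan-free medium DMEM F-12-based, both with dialyzed fetal bovine serum. For the control medium neither base nor serum is given in the RNA sequencing methods. Against untreated cells, the base medium, the serum and the missing amino acid therefore cannot be told apart. Between the depletions the base medium and the missing amino acid cannot be told apart. The 6 libraries held 46390819 to 64388876 recovered reads. No source says whether the samples of a condition were separate cultures, so p-values measure only the spread between these samples.

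Aminoacyl-tRNA synthetases attach each amino acid to its matching tRNA and so supply the ribosome. The cytosol and the mitochondria use largely separate enzymes, all encoded in the nucleus, while KARS1 and GARS1 serve both compartments. In the cytosol several synthetases are held together with AIMP1 and AIMP2 in the multisynthetase complex. Uncharged tRNA activates the kinase GCN2 (EIF2AK4), which phosphorylates the initiation factor subunit encoded by EIF2S1. This raises translation of the transcription factor ATF4, and many cytosolic synthetase genes are known ATF4 targets.

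Levels below are normalized counts of each library, that is reads divided by size factors computed over all 6 libraries together. Fold changes against untreated cells come from the deposited table of each depletion and are on the log2(normalized count + 1) scale. They were tested with limma over all genes with a mean of at least 10, and an adjusted p (Benjamini-Hochberg) under 0.05 was called. Many genes passed this test. After histidine depletion 39.1% of the tested genes were called higher and 38.2% lower, and after tryptophan depletion 36.1% and 34.8%. In the direct comparison of the media, 39.9% were higher without histidine and 38.4% higher without tryptophan. A size factor scale is relative, so a change in RNA per cell and a change in the share of responding cells cannot be told apart.

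As a check of the label, 9 of 12 epithelial markers averaged 100 normalized counts or more in each condition. CEACAM5 fell short of this without histidine, and CDX1 and GPA33 in every condition. CDX1 averaged 20.4 in untreated cells, 0 without histidine and 4.04 without tryptophan, and GPA33 77.1, 6.44 and 31.9. The summed level of all 12 ran from 429654 to 610631 over the libraries, and the keratins KRT8 and KRT18 made up most of it. Of 14 markers of immune, stromal and endothelial cells, 10 were at 20 or under in each library, TPSAB1, CPA3 and COL1A2 were at 0 throughout, and only CD14 passed 100 in any. The summed level of these 14 was 247 and 255.6 in untreated cells, 135.5 and 155.7 without histidine and 468.5 and 464.2 without tryptophan, and CD14 made up most of the last. Epithelial genes themselves moved, in both directions. Without histidine 4 of the 12 were called higher and 8 lower, where 39.1% and 38.2% of all tested genes were. Without tryptophan 6 were higher and 3 lower, where 36.1% and 34.8% of all tested genes were. CEACAM5, an adhesion molecule, was at 497 and 540 in untreated cells, 66.9 and 104.8 without histidine and 7952 and 7856 without tryptophan. The part of these shifts in the results below was not tested.

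The enzymes of the withdrawn amino acids come before the rest. HARS1, cytosolic histidyl-tRNA synthetase (chromosome 5 of GRCh38, 140673035 to 140691537, minus strand), had 4414 and 4587 normalized counts in the untreated libraries, 5897 and 5759 without histidine and 3574 and 3790 without tryptophan. The 3 conditions did not overlap, with histidine-depleted cells highest and tryptophan-depleted cells lowest. HARS1 rose after histidine depletion by a log2 fold change of 0.38 (standard error 0.0503, adjusted p = 2.43e-07, limma), which is 1.30-fold. It fell after tryptophan depletion, with a log2 fold change of -0.30 (standard error 0.0483, adjusted p = 2.01e-08, limma).

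HARS2, the mitochondrial histidyl-tRNA synthetase, lies next to HARS1 on the opposite strand (chromosome 5, 140691430 to 140699305). It had 3112 and 3179 normalized counts in untreated cells, 1511 and 1516 without histidine and 2767 and 2793 without tryptophan. It fell to a 2.06-fold lower level without histidine (log2 fold change -1.05, standard error 0.0544, adjusted p = 9.09e-15, limma), so the 2 histidyl enzymes moved in opposite directions. Without tryptophan it fell by 0.19 on the log2 scale (adjusted p = 0.000507, limma). The RefSeq start sites used here lie 85 bases apart and point away from each other. Their promoter windows, from 250 bases before to 50 after the start, share 184 bases. These are shown because opposite changes came from genes with this common stretch, which holds both starts. The RefSeq sequence of GRCh38.p14 at chr5:140691321-140691504, on the strand of HARS2 and with no part marked, is given on its own line.
HARS1 and HARS2 shared promoter stretch: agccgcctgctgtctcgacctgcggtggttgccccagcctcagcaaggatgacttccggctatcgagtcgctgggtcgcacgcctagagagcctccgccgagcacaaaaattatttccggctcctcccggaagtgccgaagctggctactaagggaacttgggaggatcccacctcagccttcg

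HARS2 exons cover part of HARS1 on the other strand, and opposite-strand genes together (WDR55 and HARS2) cover 8.46% of the exonic bases of HARS1, while HARS1 covers 2.90% of those of HARS2. Whether counting used the strand is not stated.

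WARS1, cytosolic tryptophanyl-tRNA synthetase and a known interferon-inducible gene (chromosome 14, 100333790 to 100376805, minus strand), had 10067 and 11056 normalized counts in untreated cells. It had 6585 and 7089 without histidine, and 31361 and 32051 without tryptophan. Its groups did not overlap, and both tryptophan-depleted libraries stood far above the others. WARS1 rose 2.99-fold without tryptophan (log2 fold change 1.58, standard error 0.0491, adjusted p = 4.35e-64, limma), the largest change of any member against untreated cells. Without histidine it fell 1.53-fold (log2 fold change -0.62, standard error 0.0548, adjusted p = 2.57e-10, limma). Genes on the opposite strand cover 10.6% of its exonic bases, and the annotation holds 1 pseudogene named for it.

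WARS2, its mitochondrial counterpart (chromosome 1, 119031216 to 119140654, minus strand), moved the other way in both media. It had 1630 and 1679 normalized counts in untreated cells, 1915 and 1864 without histidine and 973 and 983 without tryptophan. The tryptophan-depleted libraries were lowest, at a 1.70-fold lower level (log2 fold change -0.76, standard error 0.0595, adjusted p = 1.66e-24, limma). The rise without histidine was small (log2 fold change 0.20, adjusted p = 0.00284, limma) and its call was lost without histidine-depleted replicate 1 (adjusted p = 0.0550, limma). Withdrawal of each amino acid was thus accompanied by a higher level of its cytosolic enzyme and a lower level of its mitochondrial enzyme. This pattern was not particular to the withdrawn amino acid. It was also called for cysteine, arginine and threonine without histidine, and for alanine, leucine, serine, threonine and tyrosine without tryptophan.

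**Figure D1:**
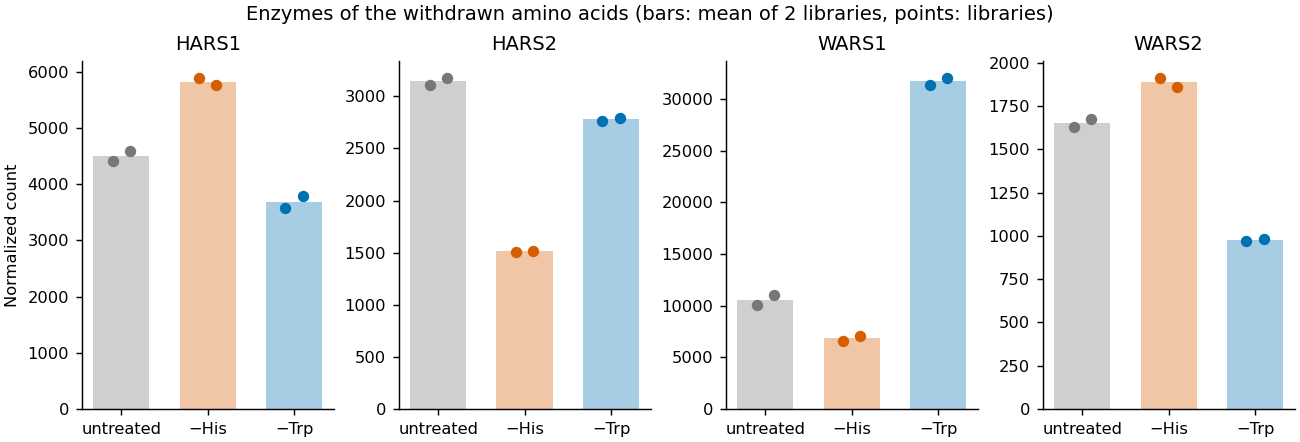
Normalized counts (vertical axes, from 0) of HARS1, HARS2, WARS1 and WARS2 in untreated, histidine-depleted (−His) and tryptophan-depleted (−Trp) HT29 cells, with bars for the mean of 2 libraries and points for the libraries. HARS2 is lowest without histidine, at 1511 and 1516, and WARS1 highest without tryptophan, at 31361 and 32051.

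After histidine depletion the cytosolic set went both ways, with 86.4% called against 77.3% of all tested genes. Of its 22 members, 10 rose, 9 fell and 3 did not pass the test (IARS1, KARS1 and NARS1), where 39.1% of all tested genes rose and 38.2% fell. The median log2 fold change was 0.059 against 0.010 over all tested genes, and it was -0.21 with quantile normalization, under which 9 members were higher and 12 lower. It was 0.016 without untreated replicate 1 and 0.10 without untreated replicate 2. The members that rose were HARS1, CARS1, LARS1, MARS1, RARS1, TARS1, YARS1, FARSA, AIMP1 and AIMP2. Those that fell were AARS1, EPRS1, FARSB, GARS1, QARS1, SARS1, TARS3, VARS1 and WARS1.

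The largest cytosolic change without histidine was in QARS1, the glutaminyl-tRNA synthetase (chromosome 3, 49095932 to 49105130, minus strand). It had 12630 and 12984 normalized counts in untreated cells, 4470 and 4641 without histidine and 8597 and 8189 without tryptophan. All 4 depleted libraries were below the untreated ones, and the histidine-depleted ones lowest. It fell 2.79-fold without histidine (log2 fold change -1.48, standard error 0.0495, adjusted p = 1.75e-18, limma).

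GARS1, glycyl-tRNA synthetase (chromosome 7, 30580533 to 30634033, plus strand), had 23541 and 24241 normalized counts in untreated cells, 11665 and 11759 without histidine and 29818 and 30157 without tryptophan. It fell 2.03-fold without histidine (log2 fold change -1.02, standard error 0.0506, adjusted p = 3.64e-15, limma). TARS3, a less abundant cytosolic threonyl-tRNA synthetase (chromosome 15, 101653596 to 101724473, minus strand), had 837 and 835 normalized counts in untreated cells, 416.5 and 399 without histidine and 591 and 547 without tryptophan. Its fall without histidine was 2.04-fold (log2 fold change -1.03, standard error 0.0783, adjusted p = 1.52e-11, limma). TARS1, the abundant enzyme for the same amino acid, was higher in the same libraries, at 45610.2 and 46111 against 27436 and 28960.5 in untreated cells (log2 fold change 0.71, adjusted p = 2.85e-11, limma).

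FARSA and AIMP2 were the cytosolic members that rose most without histidine. FARSA encodes the alpha subunit of cytosolic phenylalanyl-tRNA synthetase (chromosome 19, 12922479 to 12934037, minus strand) and had 3096 and 3164 normalized counts in untreated cells, 6025 and 6525 without histidine and 2560.0 and 2662 without tryptophan. Its rise was 2.02-fold (log2 fold change 1.01, standard error 0.0524, adjusted p = 8.36e-15, limma). FARSB, which encodes the beta subunit of the same enzyme, went the other way, from 3900 and 4169 normalized counts to 2596 and 2547 without histidine (log2 fold change -0.64, adjusted p = 8.60e-11, limma). After tryptophan depletion both subunits reversed, FARSB rising (log2 fold change 0.30) and FARSA falling (-0.27), each past the threshold. AIMP2, a scaffold protein of the multisynthetase complex (chromosome 7, 6009255 to 6023834, plus strand), had 1125 and 1116 normalized counts in untreated cells, 2224 and 2413 without histidine and 879 and 837 without tryptophan. It rose 2.08-fold without histidine (log2 fold change 1.06, standard error 0.0598, adjusted p = 4.77e-14, limma). EIF2AK1 covers 29.1% of the exonic bases of AIMP2 on the other strand, so its reads are uncertain if counting ignored strand.

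Among the other cytosolic members called after histidine depletion, the increases ran from a log2 fold change of 0.26 in CARS1 to 0.96 in RARS1. The decreases ran from -0.17 in SARS1 to -0.65 in AARS1, with EPRS1 at -0.60 and VARS1 at -0.27. The SARS1 call was lost without histidine-depleted replicate 1 (adjusted p = 0.255, limma) and without replicate 2 (adjusted p = 0.119, limma), and CARS1 was at 0.00090 with quantile normalization. NARS1, not called, had a log2 fold change of 0.11 (adjusted p = 0.0595, limma) and passed without untreated replicate 2 (adjusted p = 0.000980, limma), with edgeR (adjusted p = 0.0127), with DESeq2 (adjusted p = 0.0329) and in the joint fit of 6 libraries (adjusted p = 0.0347, limma). It was -0.16 with quantile normalization. IARS1 had one of -0.050 (adjusted p = 0.441, limma) and passed without untreated replicate 1 (adjusted p = 0.00925, limma) and with quantile normalization (log2 fold change -0.36, adjusted p = 1.31e-06, limma).

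After tryptophan depletion 11 of the 22 cytosolic members rose, 6 fell and 5 did not pass the test. The share called was 77.3%, near the 70.8% of all tested genes (36.1% higher and 34.8% lower). The median log2 fold change was 0.093 against 0.013 over all genes, and -0.026 with quantile normalization, under which 10 were higher and 10 lower. WARS1, AARS1, EPRS1, LARS1, SARS1, YARS1, GARS1, AIMP1, RARS1, FARSB and TARS1 rose, TARS1 not with quantile normalization. QARS1, TARS3, AIMP2, VARS1, HARS1 and FARSA fell, and CARS1, IARS1, KARS1, MARS1 and NARS1 had log2 fold changes from 0.00080 to 0.065.

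AARS1, alanyl-tRNA synthetase (chromosome 16, 70251983 to 70289707, minus strand), followed WARS1 in size. It had 24099 and 25212 normalized counts in untreated cells, 15195 and 16116 without histidine and 48304 and 48226 without tryptophan. The groups did not overlap, and AARS1 rose 1.95-fold without tryptophan (log2 fold change 0.96, standard error 0.0528, adjusted p = 2.16e-37, limma). EPRS1, the joined glutamyl- and prolyl-tRNA synthetase of the complex (chromosome 1, 219968600 to 220046530, minus strand), had 25000.3 and 26896 normalized counts in untreated cells, 16647 and 17272 without histidine and 38385 and 39192 without tryptophan. It rose 1.49-fold (log2 fold change 0.57, standard error 0.0524, adjusted p = 9.95e-20, limma). QARS1 and TARS3 fell in this medium too, with log2 fold changes of -0.62 (standard error 0.0468, adjusted p = 2.30e-25, limma) and -0.56 (standard error 0.0728, adjusted p = 6.59e-12, limma).

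TARS1 was the least certain of the increases without tryptophan. Its log2 fold change of 0.12 (adjusted p = 0.0309, limma) lost its call without tryptophan-depleted replicate 1 (adjusted p = 0.275, limma) or replicate 2 (adjusted p = 0.410, limma), and turned to -0.058 with quantile normalization. MARS1, not called at 0.065, passed without untreated replicate 2 (adjusted p = 0.00825, limma). IARS1, at 0.019, passed without the same library (adjusted p = 0.0200, limma). ARHGAP9 and DDIT3 cover 12.4% of the exonic bases of MARS1 on the other strand, and DDIT3 rose in both media, so the MARS1 values are uncertain if strand was not used.

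**Figure D2:**
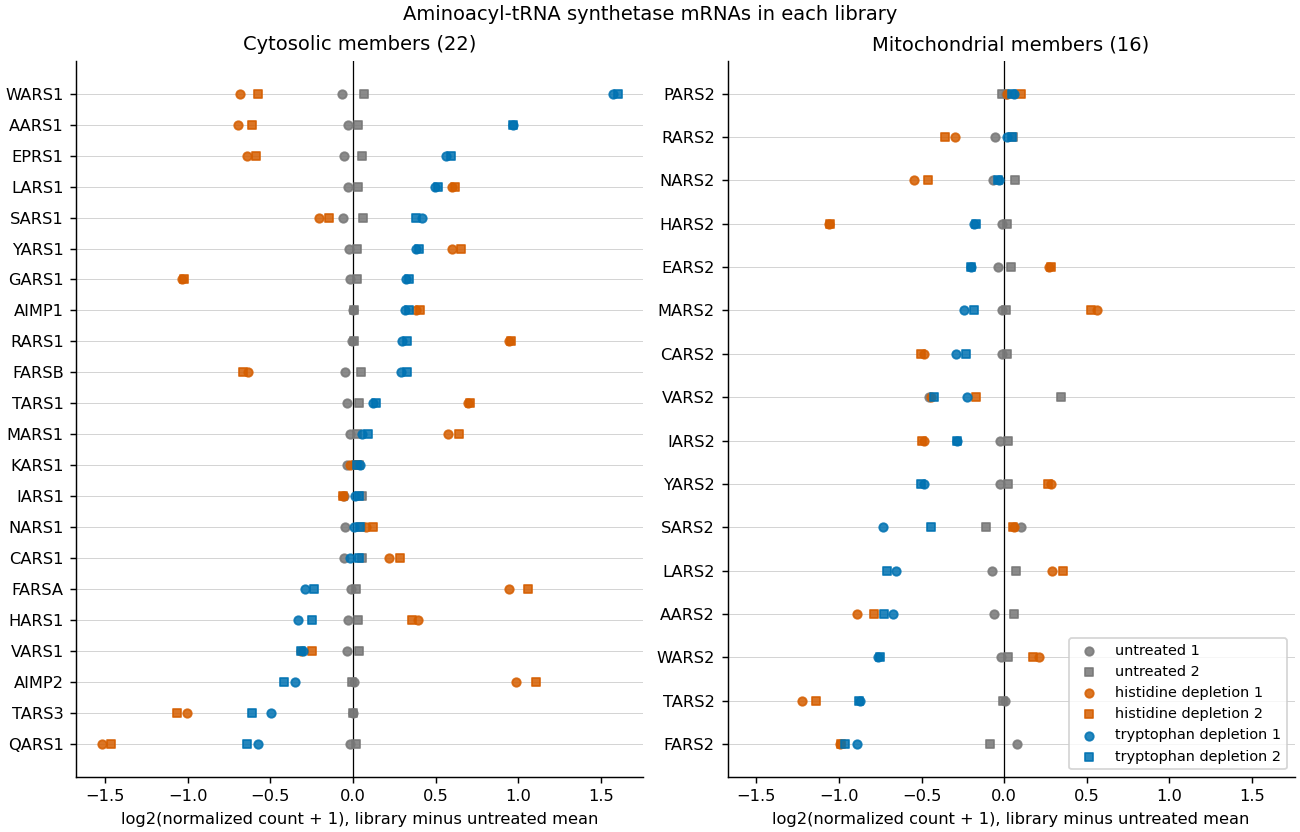
Difference of log2(normalized count + 1) in each library from the untreated mean (horizontal axes) for the 22 cytosolic and 16 mitochondrial members, ordered by the change after tryptophan depletion; circles and squares are replicates 1 and 2. WARS1 lies furthest right without tryptophan, QARS1 furthest left without histidine, and 12 of the 16 mitochondrial members fell without tryptophan.

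Of the 16 mitochondrial members, more fell than rose in either medium. After histidine depletion 5 rose (EARS2, LARS2, MARS2, WARS2 and YARS2), 8 fell (AARS2, CARS2, FARS2, HARS2, IARS2, NARS2, RARS2 and TARS2) and 3 did not pass, where 39.1% of all tested genes rose and 38.2% fell. After tryptophan depletion 0 rose and 12 fell, where 36.1% and 34.8% of all tested genes did so, while NARS2, PARS2, RARS2 and VARS2 did not pass. At an unadjusted p under 0.05 the number higher was also 0 by limma, edgeR and DESeq2, and with quantile normalization limma called 1, PARS2. The numbers lower were 12 by limma and edgeR and 11 by DESeq2.

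Over the 16 the median change was -0.28 without histidine and -0.29 without tryptophan on the log2 scale, against 0.010 and 0.013 over all genes. The histidine value rests on few genes in the middle of the list. It was -0.44 without untreated replicate 1, -0.15 without untreated replicate 2, and -0.40 when SARS2 and VARS2 were left out. SARS2 and VARS2 had very few reads, with 30 to 62 and 9 to 18 reads per library, while the lowest mean over all 6 libraries of any other member was 418 normalized counts. Other genes on the same strand, themselves listed without reads, cover 48.2% and 63.0% of their exonic bases, and their levels are therefore uncertain. The SARS2 call without tryptophan (log2 fold change -0.59, adjusted p = 0.0263, limma) was lost without untreated replicate 1 (adjusted p = 0.136, limma) and without tryptophan-depleted replicate 1 (adjusted p = 0.182, limma).

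TARS2, mitochondrial threonyl-tRNA synthetase (chromosome 1, 150487414 to 150507602, plus strand), fell most without histidine. It had 2915 and 2896 normalized counts in untreated cells, 1244 and 1317 without histidine and 1587 and 1578 without tryptophan. The depleted libraries were all below the untreated ones, at 2.26-fold (log2 fold change -1.17, standard error 0.0565, adjusted p = 2.04e-15, limma) and 1.85-fold lower levels (log2 fold change -0.88, standard error 0.0524, adjusted p = 3.01e-34, limma).

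FARS2, mitochondrial phenylalanyl-tRNA synthetase (chromosome 6, 5261044 to 5829192, plus strand), had 655 and 584 normalized counts in untreated cells, 309.9 and 311 without histidine and 333 and 317 without tryptophan. Its falls were alike in the 2 media, with log2 fold changes of -0.98 (standard error 0.0895, adjusted p = 4.28e-10, limma) and -0.93 (standard error 0.0865, adjusted p = 2.38e-19, limma). AARS2, mitochondrial alanyl-tRNA synthetase (chromosome 6, 44298731 to 44313347, minus strand), had 1769.6 and 1925 normalized counts in untreated cells, 997 and 1070.4 without histidine and 1159.9 and 1115 without tryptophan. It also fell in both, by 0.83 and 0.71 on the log2 scale (adjusted p = 2.01e-11 and 7.65e-23, limma). The cytosolic AARS1 rose in the second of these.

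MARS2 and LARS2 were higher without histidine and lower without tryptophan. MARS2, mitochondrial methionyl-tRNA synthetase (chromosome 2, 197705369 to 197708395, plus strand), had 1510.5 and 1536 normalized counts in untreated cells, 2249 and 2189 without histidine and 1289 and 1341 without tryptophan. Its rise was 1.47-fold (log2 fold change 0.55, standard error 0.0565, adjusted p = 3.57e-09, limma). LARS2, mitochondrial leucyl-tRNA synthetase (chromosome 3, 45388561 to 45554726, plus strand), had 1986 and 2196 normalized counts in untreated cells, 2559 and 2671 without histidine and 1325 and 1281 without tryptophan. It rose by a log2 fold change of 0.33 without histidine, and its fall without tryptophan was 1.61-fold (log2 fold change -0.69, standard error 0.0562, adjusted p = 6.02e-23, limma). The other mitochondrial members called had log2 fold changes without histidine from -0.49 in NARS2 to 0.29 in EARS2. Without tryptophan CARS2, EARS2, IARS2, MARS2 and YARS2 had ones from -0.50 in YARS2 to -0.21 in EARS2. Another gene covers 18.1% of the exonic bases of YARS2 on the other strand, so the YARS2 values are uncertain if strand was not used. PARS2, prolyl-tRNA synthetase, stayed between 715 and 776 in all libraries.

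The depletions were then compared directly on the jointly scaled counts. Without histidine, 11 of the cytosolic members were higher than without tryptophan and 9 lower, and of the mitochondrial members 6 were higher and 7 lower, where 39.9% of all tested genes were higher and 38.4% lower. With quantile normalization the cytosolic numbers were 7 and 12. In 14 members the calls against untreated cells had opposite signs and the direct difference passed the test. Against untreated cells 39.1% of all tested genes rose and 38.2% fell without histidine, and 36.1% rose and 34.8% fell without tryptophan. The share of all genes with opposite calls is not given here, so the 14 alone do not set the members apart. FARSA, HARS1, AIMP2, EARS2, LARS2, MARS2, WARS2 and YARS2 rose without histidine and fell without tryptophan, and AARS1, EPRS1, FARSB, GARS1, SARS1 and WARS1 did the reverse. LARS1, RARS1, TARS1, YARS1 and AIMP1 rose in both, TARS1 without tryptophan not with quantile normalization. QARS1, TARS3, VARS1, AARS2, CARS2, FARS2, HARS2, IARS2 and TARS2 fell in both. Both comparisons used the same untreated libraries.

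WARS1 had the largest direct difference, at a 4.64-fold lower level after histidine depletion (log2 difference -2.21, standard error 0.0339, adjusted p = 1.89e-13, limma). It was followed on this side by AARS1 (log2 difference -1.62, standard error 0.0292, adjusted p = 5.04e-13), GARS1 (-1.36, standard error 0.0241, adjusted p = 4.68e-13) and EPRS1 (-1.19, standard error 0.0265, adjusted p = 2.30e-12), by the same limma test. On the other side AIMP2 was higher (log2 difference 1.43, standard error 0.0516, adjusted p = 1.32e-10, limma) and FARSA 2.40-fold higher (log2 difference 1.26, standard error 0.0411, adjusted p = 5.51e-11, limma). The cognate enzymes HARS1 and HARS2 differed by 0.66 and -0.88 (adjusted p = 5.07e-09 and 6.09e-10, limma) and WARS2 by 0.95 (adjusted p = 1.29e-09, limma). LARS2 had the largest mitochondrial difference, of 1.00 (adjusted p = 5.20e-10, limma).

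Some direct differences were less certain. Those of AARS2 (-0.14), AIMP1 (0.069), IARS1 (-0.085), NARS1 (0.077) and SARS2 (0.64, with 30 to 62 reads per library) lost their calls in some fits that left out 1 depleted library. The adjusted p reached 0.190 for AARS2, 0.232 for AIMP1 and 0.192 for NARS1 without tryptophan-depleted replicate 1, 0.0744 for IARS1 without tryptophan-depleted replicate 2, and 0.0898 for SARS2 without tryptophan-depleted replicate 1 (limma). With quantile normalization AIMP1, LARS1 and NARS1 turned to the other sign. KARS1, VARS1, FARS2, PARS2 and VARS2 did not pass, with log2 differences from -0.064 to 0.024. KARS1 passed with quantile normalization (log2 difference -0.19, adjusted p = 2.70e-05, limma) and with edgeR (-0.060, adjusted p = 0.0437). VARS1 turned to -0.11 with quantile normalization and passed (adjusted p = 0.00608, limma), and CARS1 lost its call with quantile normalization (0.071, adjusted p = 0.0506, limma).

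**Figure D3:**
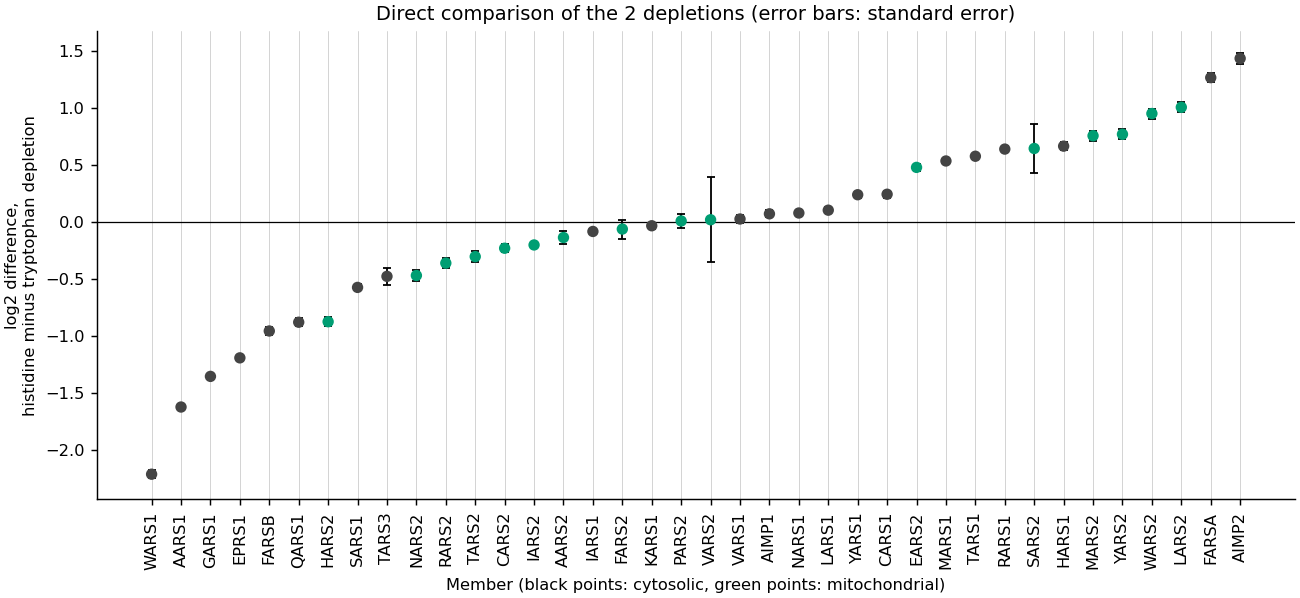
Log2 difference between histidine and tryptophan depletion (vertical axis, positive where higher after histidine depletion) for the 38 members in rising order, with standard errors; black points are cytosolic and green points mitochondrial members. WARS1 is lowest at -2.21 and AIMP2 highest at 1.43, and SARS2 and VARS2 have the widest errors.

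For 13 amino acids the members include a cytosolic and a mitochondrial gene of matching symbol. EPRS1, which serves glutamate and proline, and the subunit genes FARSA and FARSB have no such single partner and were left out of these pairs. EPRS1 and EARS2 had opposite calls in both media, as had FARSA and FARS2 without histidine and FARSB and FARS2 without tryptophan. FARSB and FARS2 both fell without histidine, and FARSA and FARS2 both fell without tryptophan. PARS2, the mitochondrial enzyme for proline, passed in neither medium, while EPRS1 fell without histidine and rose without tryptophan. After histidine depletion 39.1% of all tested genes rose and 38.2% fell, and calls were opposite in 5 of these 13 pairs. The cytosolic enzyme was higher and the mitochondrial one lower for cysteine, histidine, arginine and threonine, with the reverse for tryptophan. A share of opposite calls over other gene pairs is not given here, so such counts alone do not set these pairs apart. The tryptophan pair rests on the WARS2 call, lost without histidine-depleted replicate 1 (adjusted p = 0.055, limma), and the cysteine pair on the CARS1 call, lost with quantile normalization (adjusted p = 0.982, limma). After tryptophan depletion 36.1% of all tested genes rose and 34.8% fell. Calls were then opposite in 6 pairs, each with the cytosolic enzyme higher, for alanine, leucine, serine, threonine, tryptophan and tyrosine. Of these, the serine pair rests on the SARS2 call and the threonine pair on the TARS1 call, both of which were lost when single libraries were left out. The ratio of WARS1 to WARS2, on normalized counts per kilobase of transcript, was 6.52 and 6.95 in untreated cells, 3.63 and 4.02 without histidine and 34.0 and 34.4 without tryptophan. That of HARS1 to HARS2 was 1.80 and 1.83 in untreated cells, 4.95 and 4.81 without histidine and 1.64 and 1.72 without tryptophan. TARS1 to TARS2 went from 9.61 and 10.2 to 37.4 and 35.7 without histidine and 19.7 and 20.1 without tryptophan. The TARS, WARS and HARS ratios did not overlap between any conditions. Their size depends on the transcript length used, here the canonical one. With the union of all annotated exons HARS1 lay below HARS2 in untreated cells, at 318 against 846 per kilobase.

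Summed over the 20 cytosolic enzymes, the level per kilobase was 107858 and 113676 in untreated cells, 116264 and 119594 without histidine and 138659 and 139786 without tryptophan. Over the 16 mitochondrial enzymes it was 12417 and 12799, 10002 and 10021, and 9985 and 10069. The mitochondrial sums of both depletions lay under those of untreated cells. The ratio of the sums was 8.69 and 8.88 in untreated cells, 11.6 and 11.9 without histidine and 13.9 in both libraries without tryptophan. As a share of all reads, the cytosolic enzymes took 0.615% and 0.629% in untreated cells, 0.568% and 0.580% without histidine and 0.747% and 0.752% without tryptophan.

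Levels of single members spanned a wide range. In untreated cells SARS1, seryl-tRNA synthetase, was highest at 12564 normalized counts per kilobase of canonical transcript, followed by TARS1 at 10553, YARS1 at 10097 and GARS1 at 9803. The ranges of YARS1 and GARS1 overlapped, as in 8 of 37 pairs of neighbours in the order. The median was 4660 for cytosolic and 621 for mitochondrial members, and IARS2 was the highest of the latter at 2675. TARS3, FARSB and AIMP2 had the lowest levels among the cytosolic members. After histidine depletion TARS1 became the highest member, at 17163, and after tryptophan depletion SARS1 stayed so, at 16580. WARS1 stood 13th of 38 in untreated cells. With the union of all annotated exons, which holds retained introns, ranks moved. TARS1 then led and SARS1 came next, at 6624 and 6248 normalized counts per kilobase, while HARS1 went from rank 17 to 30 and GARS1 from 4 to 15, and HARS1 and AIMP1 fell below FARSB.

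**Figure D4:**
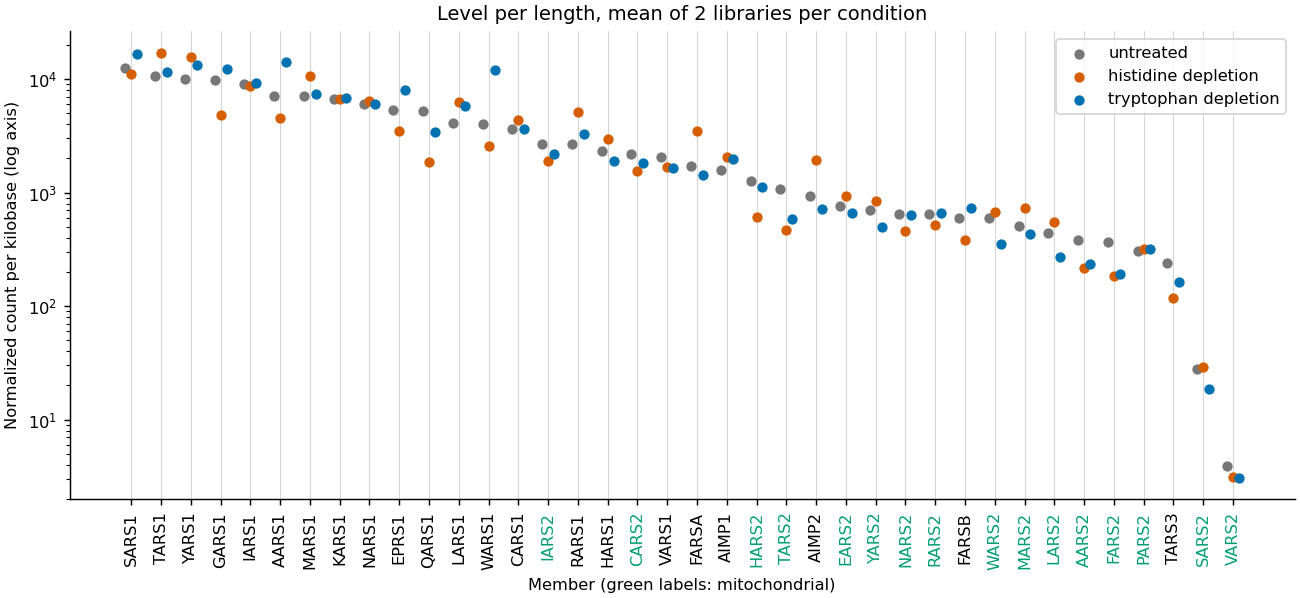
Level of each member per kilobase of canonical transcript (vertical log axis), as the mean of 2 libraries in each condition, ordered by the untreated level; green labels mark mitochondrial members. SARS1 leads in untreated cells at 12564, and SARS2 and VARS2 lie far below the rest.

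The multisynthetase complex contains EPRS1, IARS1, LARS1, MARS1, QARS1, RARS1, KARS1, AIMP1 and AIMP2 among the members. After histidine depletion 5 of these 9 rose, 2 fell (EPRS1 and QARS1) and 2 did not pass, with a median log2 fold change of 0.40. Of the 13 other cytosolic members, 5 rose and 7 fell, with a median of -0.17. After tryptophan depletion the numbers were 4 higher and 2 lower of 9 (median 0.065) and 7 higher and 4 lower of 13 (median 0.12). The called shares of the complex were 77.8% and 66.7%, near those of all tested genes, 77.3% without histidine and 70.8% without tryptophan. Components of the complex did not share a direction in either medium.

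Of 13 cytosolic members listed as known ATF4 targets, 8 rose and 1 fell after tryptophan depletion (median log2 fold change 0.32), and 5 rose and 6 fell after histidine depletion (median -0.050). Of 7 enzymes not listed as such, 2 rose and 4 fell after tryptophan depletion (median -0.27), and 3 rose and 3 fell after histidine depletion. The scaffold genes AIMP1 and AIMP2 were in neither list. The called share of the listed targets was 69.2% without tryptophan and 84.6% without histidine, against 70.8% and 77.3% of all tested genes. These lists were written with earlier results of these data known. ATF4 acts at the CARE, a composite element whose core is searched here as TGATGNAA on either strand. In RefSeq promoter windows of GRCh38.p14, from 250 bases before to 50 after the start, it was found in 7 of 18 cytosolic members with a window (38.9%) and in 1 of 14 mitochondrial ones (7.14%), against 4.46% of 27305 genes and 3.62% of 35116 windows. The cytosolic members were AARS1, CARS1, GARS1, IARS1, MARS1, NARS1 and TARS1, and the mitochondrial one YARS2. CARS1, GARS1 and TARS1 each have another window without the match. Counted from the start site of its window, the match began at -187 in AARS1 and -197 in YARS2. In the other cytosolic members it began between -33 (GARS1) and 14 (NARS1). The stretches of 3 members that rose and 2 that did not pass after tryptophan depletion are shown with that of YARS2, on the gene's strand with the match in capitals.
AARS1, chr16:70289666-70289713, minus strand: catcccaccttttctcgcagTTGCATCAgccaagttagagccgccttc
GARS1, chr7:30594825-30594872, plus strand: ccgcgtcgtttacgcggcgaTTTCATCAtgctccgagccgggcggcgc
TARS1, chr5:33440947-33440994, plus strand: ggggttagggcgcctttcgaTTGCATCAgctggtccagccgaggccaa
IARS1, chr9:92293683-92293730, minus strand: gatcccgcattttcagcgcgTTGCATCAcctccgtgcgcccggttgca
NARS1, chr18:57621795-57621842, minus strand: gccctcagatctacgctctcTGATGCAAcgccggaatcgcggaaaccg
YARS2, chr12:32756067-32756114, minus strand: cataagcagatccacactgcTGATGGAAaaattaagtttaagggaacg

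The match did not go with a single direction of change. After tryptophan depletion AARS1, GARS1 and TARS1 rose, TARS1 not with quantile normalization, and CARS1, IARS1, MARS1 and NARS1 did not pass, while YARS2 fell (log2 fold change -0.50). After histidine depletion CARS1, MARS1 and TARS1 rose, and AARS1 and GARS1 fell. WARS1 and EPRS1 rose without tryptophan and have no match in their windows, which says only that these letters are not there. The interferon-stimulated response element was searched as GAAA, any 2 bases and GAAA on either strand. It was found in 1 window of WARS1, not in the other, and in EARS2. That is 5.56% of cytosolic and 7.14% of mitochondrial members with a window, near the 4.38% of all genes. The match is shown for WARS1, the member with the largest rise.
WARS1, chr14:100375373-100375422, minus strand: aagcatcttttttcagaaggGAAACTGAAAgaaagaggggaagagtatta

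Of the known interferon-gamma targets other than WARS1, 8 were tested and 6 rose in each medium, where 39.1% of all tested genes rose without histidine and 36.1% without tryptophan. The median log2 fold change of the 8 was 2.10 without histidine and 0.83 without tryptophan. IRF1, GBP1, TAP1, HLA-E and NLRC5 rose in both. PSMB9 rose without histidine and GBP2 without tryptophan, each not passing in the other medium, and CXCL10 passed in neither. GBP1, a guanylate-binding protein, had 75.4 and 62.7 normalized counts in untreated cells, 2371 and 2391 without histidine and 179 and 249.98 without tryptophan. NLRC5, a regulator of MHC class I genes, had 156 and 166, 1085 and 994, and 494 and 541. TAP1, a peptide transporter, had 231 and 205, 1041 and 1108, and 539.9 and 663. All 3 were highest without histidine, where WARS1 was lowest. GBP2 had 471 and 537, 521 and 591, and 1013 and 896, and was highest without tryptophan, as WARS1 was. In the direct comparison 6 of the 8 were higher without histidine and 1, GBP2, lower, where 39.9% and 38.4% of all tested genes were.

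The other ATF4 targets behaved unlike in the 2 media. Of 25 listed genes including ATF4 itself, 24 were tested. After tryptophan depletion 20 rose and 3 fell, and the median change was 1.01 on the log2 scale, where 36.1% of all tested genes rose and 34.8% fell. After histidine depletion 6 rose and 13 fell, with a median of -0.17, and the called share of 79.2% was near the 77.3% of all tested genes. In the direct comparison 21 were lower after histidine depletion and 2 higher, against 38.4% and 39.9% of all tested genes. DDIT3, a stress transcription factor, had 1198 and 1177 normalized counts in untreated cells, 2011 and 1806 without histidine and 4758 and 4739 without tryptophan. FGF21, a secreted stress hormone, had 29.5 and 47.7, 38.9 and 39.7, and 352 and 352, and SLC6A9, a glycine transporter, 1385 and 1515, 1203 and 1205, and 5489 and 5452. These genes were highest without tryptophan, as WARS1 and AARS1 were.

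Without histidine the largest changes of this list went both ways. PPP1R15A, a phosphatase subunit that reverses phosphorylation of eIF2alpha, had 7829 and 7954 normalized counts in untreated cells, 111972 and 108737 without histidine and 14770 and 15288 without tryptophan. ATF3, a transcription factor, rose from 1977 and 1945 to 5556 and 5422, and NUPR1, a stress-induced chromatin protein, fell from 1153 and 1268 to 324 and 392. The sensor genes rose without histidine, EIF2AK4 from 3028 and 2995 to 4081 and 4086 (log2 fold change 0.45), EIF2S1 from 4209 and 4079 to 13161 and 12960 (1.67) and GCN1, a GCN2 activator, from 16132 and 16147 to 17904 and 18415 (0.18). Without tryptophan EIF2AK4 (0.31) and EIF2S1 (0.43) rose and GCN1 did not pass.

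**Figure D5:**
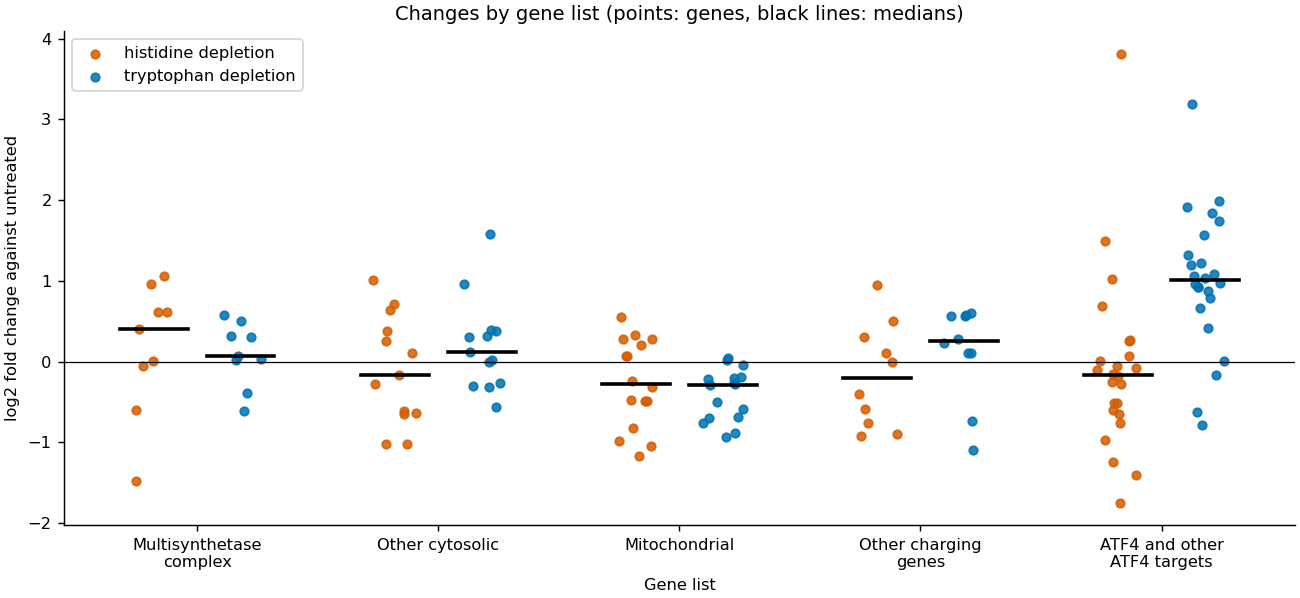
Log2 fold changes against untreated cells (vertical axis) by gene list for histidine and tryptophan depletion, with points for genes and black lines for medians. The ATF4 targets without tryptophan have a median of 1.01, and the mitochondrial members medians of -0.28 and -0.29.

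A list of 10 other genes of tRNA charging was read beside the members. It holds the complex component EEF1E1, the mitochondrial amidotransferase genes QRSL1, GATB and GATC, the elongation factor gene EEF1A1, AARSD1, and genes of initiator and selenocysteine tRNA and of tRNA export. After histidine depletion 3 rose and 5 fell (median log2 fold change -0.21), and after tryptophan depletion 6 rose and 2 fell (median 0.26). The called share was 80.0% in each medium, near the 77.3% and 70.8% of all tested genes. MTFMT, which formylates mitochondrial initiator tRNA, had 961 and 957 normalized counts in untreated cells, 508 and 497 without histidine and 594 and 559 without tryptophan. It fell in both media (log2 fold changes -0.92 and -0.74).

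GATB, a subunit of the enzyme that makes mitochondrial glutaminyl-tRNA in place of a glutaminyl synthetase, had 1092 and 1230 normalized counts in untreated cells, 756 and 771 without histidine and 505 and 587 without tryptophan. Its partners QRSL1 and GATC rose in both media, with log2 fold changes of 0.31 and 0.50 without histidine and 0.58 and 0.23 without tryptophan. PSTK, a kinase of the selenocysteine pathway, rose from 250.3 and 231 to 481 and 442 without histidine (log2 fold change 0.94, adjusted p = 5.72e-09, limma). XPOT, which exports tRNA from the nucleus, had 27167 and 29192 in untreated cells, 14498 and 15442 without histidine and 42768 and 43480 without tryptophan. It fell without histidine (log2 fold change -0.90, adjusted p = 1.87e-13, limma) and rose without tryptophan (0.61, adjusted p = 6.10e-21, limma). QRSL1 and GATC were chosen after their values were seen.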

How the data were processed

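Polyadenylated RNA of 6 HT29 samples was sequenced in stranded, paired-end libraries with adapters that carry molecular identifiers. The authors aligned reads with STAR 2.7.10a to GRCh38, counted them with HTSeq 2.0.5 on gencode 38 and normalized them with DESeq2, and the deposited values are a signal: counts divided by size factors, in 1 table per depletion with the same untreated libraries. Use of identifiers, strand and multi-mapping reads is not stated. Whole reads were recovered for 100% of values (tolerance 0.001). The untreated libraries gave the same reads in both tables.

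Tests used limma 3.58.1 in R 4.3.3 (trend, two-sided) on log2(value + 1), within a table for each depletion and after median-of-ratios scaling of all 6 libraries for the direct comparison (18288, 17960 and 18276 genes). Alternatives tried were other pseudocounts (0.5, 8), a filter at a mean of 50 or none, no trend, quantile normalization, edgeR 4.0.16, DESeq2 1.42.0, a joint fit, a replicate block, a fold limit and each library left out. The code was tested on simulated data. Python 3.11.15 drew the plots. Chi-square per degree of freedom between replicates was 8.77, 4.03 and 1.85.

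The members and lists were chosen with earlier results of these data known. Named were HARS1, HARS2, WARS1 and WARS2, and per depletion and compartment the 5 members with the largest change past the threshold and without overlap. Also named were 6 members called in opposite directions, and of each other list up to 3 genes with a mean of at least 100. Of 38 members, 32 had a RefSeq promoter window. Some genes of these lists are not reported here.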

Additional observations from a re-analysis of the deposited data

Results flagged for a closer look

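The 2 depletions differed in 33 of the 38 members, each by the test of the difference itself (limma, adjusted p under 0.05). Of all tested genes, 39.9% were called higher and 38.4% lower. The same test was passed by the 20 other genes listed below. It was also passed by IRF1 (1.42), PSMB9 (1.82), HLA-E (0.83), EEF1E1 (-0.99), GBP2 (-0.78), EEF1A1 (-0.48) and ATF4 (-0.31). The differences are given as log2 values, histidine minus tryptophan depletion. Lower after histidine depletion among cytosolic members were WARS1 (-2.21), AARS1 (-1.62), GARS1 (-1.36), EPRS1 (-1.19), FARSB (-0.96), QARS1 (-0.88), SARS1 (-0.58), TARS3 (-0.48) and IARS1 (-0.085). Higher were AIMP2 (1.43), FARSA (1.26), HARS1 (0.66), RARS1 (0.64), TARS1 (0.57), MARS1 (0.53), CARS1 (0.24), YARS1 (0.24), LARS1 (0.10), NARS1 (0.077) and AIMP1 (0.069).

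Among mitochondrial members, HARS2 (-0.88), NARS2 (-0.47), RARS2 (-0.36), TARS2 (-0.31), CARS2 (-0.23), IARS2 (-0.20) and AARS2 (-0.14) were lower after histidine depletion. LARS2 (1.00), WARS2 (0.95), YARS2 (0.77), MARS2 (0.75), SARS2 (0.64) and EARS2 (0.48) were higher.

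Of the other genes, CEACAM5 (-6.54), FGF21 (-3.13), NUPR1 (-2.99), CD14 (-2.70), SLC6A9 (-2.18), XPOT (-1.53), DDIT3 (-1.32), QRSL1 (-0.29) and MTFMT (-0.20) were lower after histidine depletion, and GBP1 (3.49), PPP1R15A (2.88), EIF2S1 (1.22), NLRC5 (1.00), TAP1 (0.84), PSTK (0.82), ATF3 (0.50), GATB (0.49), GATC (0.25), GCN1 (0.15) and EIF2AK4 (0.12) higher.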

How the results depend on the processing

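Over 114 changes of members (38 in 3 comparisons), 82 kept direction and side of the threshold in every alternative run. Of 1591 alternative values, 1493 kept both, 43 lost the call and 13 gained it. The sign changed in 32 values that passed in neither fit (15 changes of members, among them KARS1 and IARS1 after histidine depletion), under several settings. It changed in 10 more with a call in at least 1 fit, each with quantile normalization. These were KARS1 (-0.25) and NARS1 (-0.16) after histidine depletion, IARS1 (-0.18), KARS1 (-0.067), NARS1 (-0.076) and TARS1 (-0.058) after tryptophan depletion, and LARS1 (-0.0090), NARS1 (-0.073), VARS1 (-0.11) and AIMP1 (-0.041) in the direct comparison. The cause was not tested. With that normalization the cytosolic medians were -0.21, -0.026 and -0.0895 in the 3 comparisons, and the mitochondrial one after tryptophan depletion -0.32, which was -0.34 with edgeR and with DESeq2.

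A limit of 1 on the size of the log2 fold change left 5 cytosolic and 2 mitochondrial calls after histidine depletion, 1 and 0 after tryptophan depletion, and 6 and 1 in the direct comparison. With a mean of at least 50 the mitochondrial direct median was -0.10. Leaving out each library, the cytosolic medians ran from 0.016 to 0.10 after histidine depletion, from 0.062 to 0.12 after tryptophan depletion and from 0.023 to 0.070 in the direct comparison. The mitochondrial medians ran from -0.44 to -0.15 after histidine depletion, from -0.40 to -0.26 after tryptophan depletion and from -0.093 to -0.0053 in the direct comparison.

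Whether same-numbered samples were handled together is not stated. Correlations of same-numbered deviations were 0.042, 0.0020 and -0.041 over 18264 genes. They do not settle this, since genes with few reads weighed as much as the others. A replicate block gave 20, 17 and 19 cytosolic and 13, 12 and 13 mitochondrial calls, against 19, 17 and 20 and 13, 12 and 13 without it. NARS1 after histidine depletion gained its call (adjusted p = 0.0235, limma) and AIMP1 in the direct comparison lost it (adjusted p = 0.0820, limma). SARS2 and VARS2 had only 9 to 62 reads per library. The part of depth and of the overlapping genes in this was not tested.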
